A study of Arabidopsis thaliana with 18 samples.

Results

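The Aux/IAA and GH3 genes of Arabidopsis thaliana were followed in the margin and the center of leaf 5 in wild-type Col-0 plants and in plants lacking class II TCP factors. The members were chosen by locus identifier from 33602 counted loci: 29 Aux/IAA genes and 6 auxin-conjugating GH3 genes, 35 in all. Of these, 28 had enough reads to be tested (23 Aux/IAA and 5 GH3). The other 7 were not tested and held few reads over all 18 libraries: IAA15 held 8, IAA20 held 21, IAA31 held 6, IAA32 held 69, IAA33 held 3, IAA34 held 14 and GH3.1 held 3.

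Aux/IAA proteins are short-lived repressors that bind auxin response factors (ARFs) and bring TOPLESS corepressors to auxin-responsive genes. Auxin joins a TIR1 or AFB receptor to the degron of an Aux/IAA protein, the repressor is degraded and the ARF is released. Many Aux/IAA genes are themselves switched on by auxin and so form a feedback loop, and the auxin-induced GH3 enzymes couple auxin to amino acids and thereby lower the pool of free hormone. The miR319-regulated TCP factors restrain cell division in the growing leaf, and their loss gives crinkled, larger or more serrated leaves.

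The groups were Col-0, the double mutant tcp2-tcp4 and the quadruple mutant tcp2-tcp3-tcp4-tcp10, each split into margin and center, with 3 libraries in each of the 6 groups. Each library pooled the pieces of leaf 5 from 15 to 20 plants, harvested as leaf 7 emerged. All groups shared 5 days on plates, 23 °C, 16 h of light and 8 h of dark, and harvest at zeitgeber time 6 h (hours after lights on). The genotypes were moved to the greenhouse 2 days apart, quadruple mutant first, to align leaf stage, so the effect of genotype and that of plant age cannot be told apart. The sources used here do not give the alleles, and transcript of each mutated TCP gene was still counted: TCP4 was at 110 CPM (counts per 1000000 reads) in margins of Col-0 and 23.6 in those of the quadruple mutant, TCP2 at 63.4 and 8.82, TCP10 at 80 and 8.89, and TCP3 at 2.81 and 0.432. In the double mutant margin TCP2 (10.8 CPM) and TCP4 (20.6) were low while TCP10 (91.6) and TCP3 (2.81) were not, as the genotype labels state. Libraries held between 5.93 and 12.02 Mreads (1 Mread is 1000000 reads) assigned to genes. Of these, 2 had more reads aligned to several places than the others, 16.0% in the double mutant margin replicate 3 and 8.60% in the Col-0 margin replicate 1, against 3.71% to 4.97% in the other 16. Pools are the only replication described, so the p-values measure the spread between these libraries. In whole tissue, fewer cells of a type and less RNA per cell cannot be told apart.

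The sequences that distinguish members are the degron codons and the DNA just upstream of the gene. The conserved degron core, Gly-Trp-Pro-Pro followed by Val, Ile or Leu, was found in the coding sequence of 23 of the 29 Aux/IAA genes. No match was found in IAA20, IAA30, IAA32, IAA33 and IAA34, and IAA31 held a partial match. Only the longest coding sequence of each gene was searched. The codons of the core are in capitals, with 15 bases on either side, for the most abundant member in every group except the quadruple mutant center, where IAA9 was level with it (IAA8), for a member that was lower in the quadruple mutant margin and higher in its center (IAA7), and for the member with the steepest margin-to-center difference among Aux/IAA genes of both mutants (IAA19).
IAA8: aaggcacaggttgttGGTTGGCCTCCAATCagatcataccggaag
IAA7: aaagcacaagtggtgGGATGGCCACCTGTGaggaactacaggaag
IAA19: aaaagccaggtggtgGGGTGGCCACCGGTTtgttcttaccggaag
The 300 bases before the annotated start are shown for 3 Aux/IAA genes whose level in the quadruple mutant margin was below that in Col-0 and for GH3.3, whose level was above it. Sequences are from the RefSeq assembly TAIR10.1, written 5′ to 3′ on the strand of the gene, with TGTCTC and TGTCGG, the core auxin response elements, in capitals on either strand (GAGACA and CCGACA are their reverse complements).
IAA19 (chr3:5263701-5264000, plus strand): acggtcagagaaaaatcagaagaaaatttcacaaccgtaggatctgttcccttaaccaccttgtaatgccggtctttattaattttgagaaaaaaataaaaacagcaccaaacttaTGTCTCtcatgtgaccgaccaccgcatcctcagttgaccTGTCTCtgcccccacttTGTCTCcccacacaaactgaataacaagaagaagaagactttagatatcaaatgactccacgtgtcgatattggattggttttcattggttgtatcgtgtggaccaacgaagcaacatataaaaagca
IAA6 (chr1:19673653-19673952, minus strand): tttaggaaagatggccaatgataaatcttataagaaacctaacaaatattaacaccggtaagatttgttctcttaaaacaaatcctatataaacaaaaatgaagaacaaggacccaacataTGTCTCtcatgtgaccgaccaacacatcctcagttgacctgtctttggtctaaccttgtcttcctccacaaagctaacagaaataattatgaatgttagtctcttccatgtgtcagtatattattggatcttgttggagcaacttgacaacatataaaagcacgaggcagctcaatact
IAA1 (chr4:8360696-8360995, plus strand): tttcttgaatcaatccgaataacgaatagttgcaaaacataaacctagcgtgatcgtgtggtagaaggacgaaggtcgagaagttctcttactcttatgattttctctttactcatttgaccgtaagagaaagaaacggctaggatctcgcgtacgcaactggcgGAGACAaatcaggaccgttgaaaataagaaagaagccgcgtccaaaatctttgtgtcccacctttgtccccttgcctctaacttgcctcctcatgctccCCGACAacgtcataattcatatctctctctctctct
GH3.3 (chr2:9866563-9866862, minus strand): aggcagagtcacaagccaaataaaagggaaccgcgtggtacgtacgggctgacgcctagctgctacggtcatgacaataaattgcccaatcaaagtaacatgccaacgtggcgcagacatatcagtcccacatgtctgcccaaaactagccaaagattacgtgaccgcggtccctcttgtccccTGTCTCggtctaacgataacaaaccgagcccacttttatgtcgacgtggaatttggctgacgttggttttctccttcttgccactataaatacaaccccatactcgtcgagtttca
IAA19 held TGTCTC 3 times in this window and the other 3 genes held it once. IAA19 and IAA6 also shared 2 longer runs, tatgtctctcatgtgaccgacca and catcctcagttgacctgtct, at similar distances from their starts; this was noticed after their values were known. TGTCTC on either strand occurred in the windows of 14 of the 35 members (40.0%: 11 Aux/IAA and 3 GH3 genes) and in 12.97% of 27443 nuclear protein-coding genes. TGTCGG occurred in 6 members (17.1%), all Aux/IAA, and in 4.91% of all genes. The windows shown all hold TGTCTC, but not all members that changed do. Against Col-0 in the quadruple mutant margin, it occurred in 8 of the 17 members called lower and 3 of the 6 called higher. It occurred in 0 of the 5 tested members not called, but TGTCGG did in 2 of those. Either element occurred in 9 of the 17, 3 of the 6 and 2 of the 5. The rest of the 17 called lower there, IAA2, IAA4, IAA7, IAA11, IAA14, IAA17, IAA18 and IAA29, held neither element. Between the pieces of that mutant, TGTCTC occurred in 6 of the 17 members called lower in the margin. It occurred in 2 of the 3 called higher and 3 of the 8 not called. GTGGNCC, a sequence bound by class II TCP proteins, occurred in 3 members (8.57%) and in 5.05% of all genes. These were IAA8 and IAA19, called lower than Col-0 in the quadruple mutant margin, and IAA26, called higher there. In IAA19, GTGGACC lay 30 to 24 bases before the start.

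Levels between genes are compared per kilobase of exon, as CPM per kb. IAA8 was the most abundant member in the Col-0 margin at 101 ± 4.1 CPM per kb (SD, n = 3), followed by IAA9 at 63.1 ± 0.74, and their libraries did not overlap. IAA4 at 38.8 and IAA7 at 35.9 came next, then IAA16 at 33.2, IAA18 at 30.5 and IAA2 at 30.1. GH3 genes were scarce in the Col-0 margin, with GH3.5 at 1.1 and GH3.3 at 0.581 CPM per kb. The summed Aux/IAA level was 823 ± 15.0 CPM in margins of Col-0 and 888 ± 24.6 in its centers. In the double mutant it was 747 ± 23.2 CPM for margins and 885 ± 21.8 for centers. In the quadruple mutant it was 636 ± 4.92 CPM for margins and 932 ± 15.9 for centers, so its pieces stood further apart than those of Col-0. The sums are not scaled by gene length, and abundant genes such as IAA8 and IAA9 weigh most in them. The GH3 genes summed to 4.68 CPM in margins of Col-0 and to 10.4 in those of the quadruple mutant, and to 8.46 and 18.9 in the centers. In the double mutant they summed to 2.70 CPM in margins and 9.82 in centers.

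**Figure D1:**
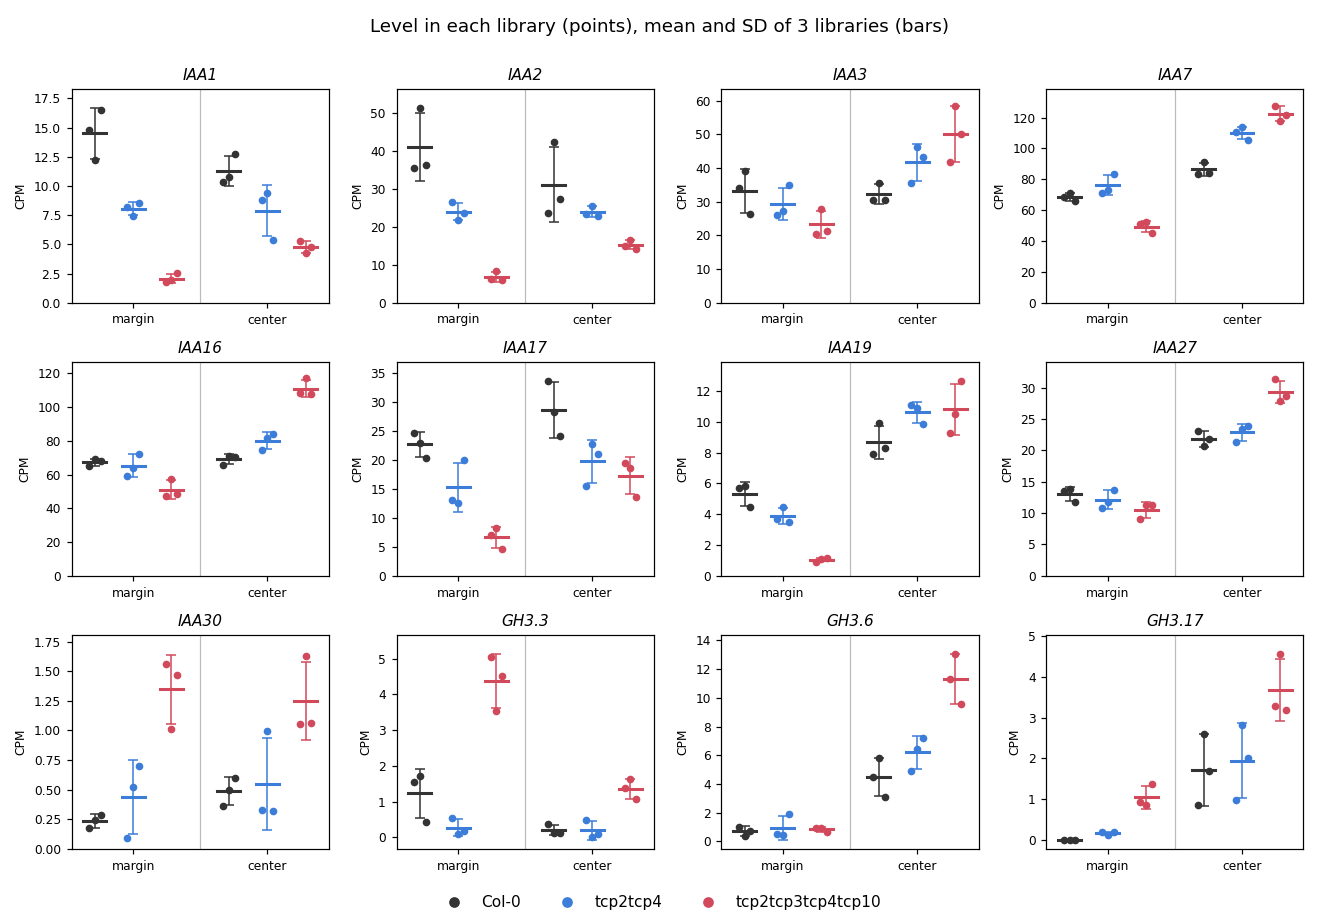
Levels of 12 members (CPM, one panel per gene) in the margin and center of Col-0, tcp2-tcp4 (2KO) and tcp2-tcp3-tcp4-tcp10 (4KO); points are libraries and bars give the mean ± SD of 3. IAA1 and IAA2 fell in both pieces of the quadruple mutant, IAA7 and IAA16 were lower in its margin and higher in its center, and IAA19 dropped in its margin to 1.06 CPM while its center stayed near 10.8.

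Within the quadruple mutant, most Aux/IAA genes had less transcript in the margin. Compared with the center, 15 of 23 tested Aux/IAA genes were lower and 1 was higher, with a median log2 difference of -0.77. Over both families 20 of 28 tested members were called, 17 lower and 3 higher, where 25.6% of all tested loci were called (13.5% lower and 12.1% higher) and the median of all loci was within 0.03 of 0. Calls are at an adjusted p under 0.05 by edgeR's quasi-likelihood test with Benjamini-Hochberg adjustment over 17763 loci, and every fold change below is a log2 value ± SE from that fit.

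IAA19 (AT3G15540), whose product acts with ARF7 in the bending of hypocotyls, had the largest margin-to-center difference among Aux/IAA genes. It was at 0.916, 1.1 and 1.16 CPM in the quadruple mutant margin libraries and at 9.31, 10.5 and 12.6 CPM in the center libraries. All margin libraries lay far below all center libraries (-3.33 ± 0.19, adjusted p = 1.14e-10). IAA7 (AT3G23050), a repressor whose stabilized form gives the auxin-resistant axr2 plants, was at 50.7, 52 and 45.2 CPM in margin libraries and 128, 118 and 122 in center libraries (-1.31 ± 0.068, adjusted p = 3.12e-11). IAA16 (AT3G04730), its close relative, was at 47.3, 57.4 and 48.7 CPM against 108, 117 and 108 (-1.12 ± 0.078, adjusted p = 2.02e-09). For both genes the lowest center library was above the highest margin library. Here and below, such separation is stated for genes described because of their calls, so it adds no separate support. Its share over all loci was not counted. IAA27 (AT4G29080), known for an interaction of its protein with phytochrome, was at 9.07, 11.3 and 11.3 CPM against 31.3, 27.9 and 28.7 (-1.47 ± 0.097, adjusted p = 8.55e-10). IAA3 (AT1G04240), the SHY2 repressor that limits the root meristem, was at 20.5, 27.9 and 21.5 CPM against 41.8, 58.4 and 50 (-1.10 ± 0.15, adjusted p = 1.1e-05), again without overlap.

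IAA1, IAA2 and IAA17 followed the same direction between the pieces of this mutant. IAA1 (AT4G14560) was at 1.74, 1.94 and 2.52 CPM against 5.29, 4.23 and 4.79 (-1.20 ± 0.23, adjusted p = 0.00059). IAA2 (AT3G23030) was at 6.32, 8.28 and 5.89 CPM against 14.9, 16.5 and 14.2 (-1.15 ± 0.21, adjusted p = 0.000399). IAA17 (AT1G04250), whose stabilized form is axr3, was at 7.05, 8.2 and 4.63 CPM against 19.5, 18.6 and 13.6 (-1.37 ± 0.20, adjusted p = 3.89e-05), and its 3 margin libraries lay below its 3 center libraries. Smaller differences were found for IAA4 (-0.60 ± 0.087, adjusted p = 2.9e-05), IAA13 (-0.63 ± 0.074, adjusted p = 2.49e-06), IAA9 (-0.37 ± 0.055, adjusted p = 3.11e-05) and IAA14, the lateral root repressor SLR (-0.67 ± 0.15, adjusted p = 0.00285). IAA28 was at 4.49, 3.46 and 3.37 CPM against 7.3, 5.29 and 7.05 (-0.77 ± 0.19, adjusted p = 0.00418). IAA5 and IAA6 rested on 5 reads each over the 3 margin libraries: IAA5 was at 0.275, 0.169 and 0 CPM against 0.952, 1.3 and 0.798 (-2.65 ± 0.64, adjusted p = 0.0039), and IAA6 at 0.275, 0 and 0.21 against 0.952, 0.651 and 1.06 (-2.37 ± 0.63, adjusted p = 0.00792). Without margin replicate 1 the log2 values were -3.31 for IAA5 and -3.02 for IAA6, and without margin replicate 2 that of IAA6 was -1.77. IAA18 was the Aux/IAA gene called higher in the margin (0.24 ± 0.085, adjusted p = 0.0408). That call did not hold with relative log expression scaling, without the low count filter or with DESeq2, or without center replicate 1 or 2 or any 1 margin replicate (adjusted p = 0.0687 to 0.172). IAA10 and IAA12 were tested and called in none of the 12 comparisons.

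**Figure D2:**
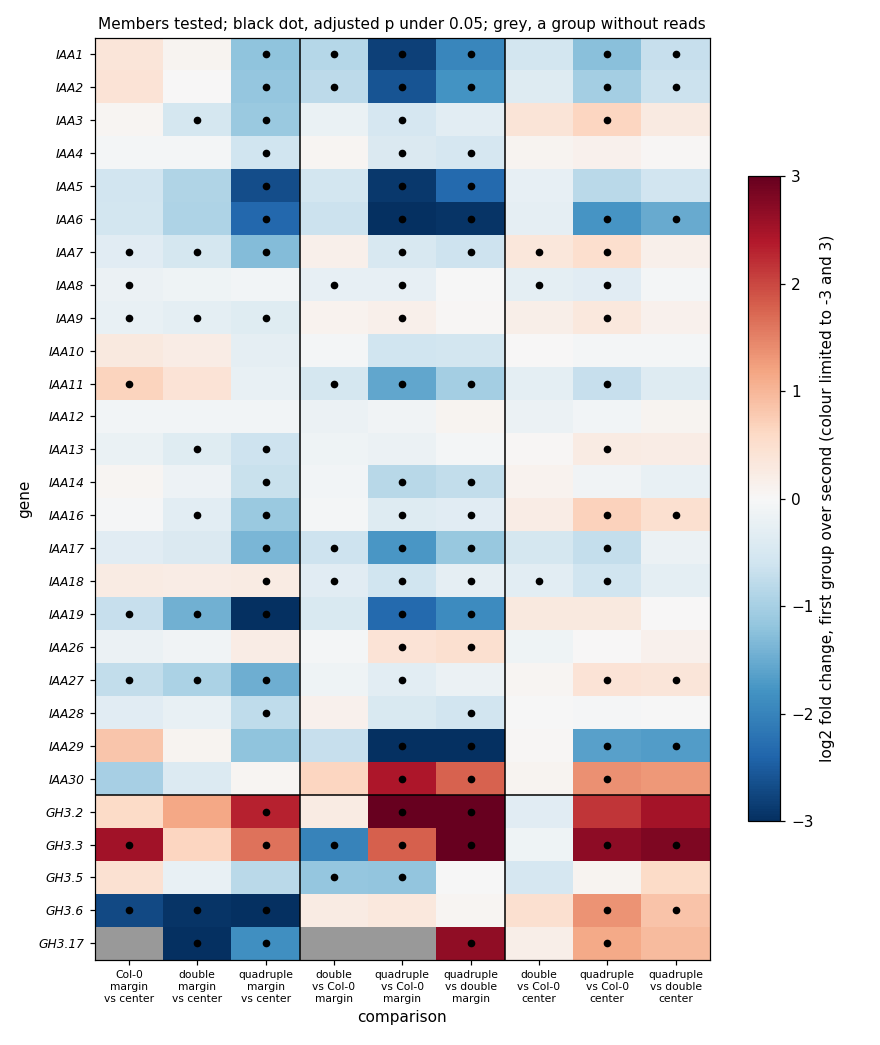
Log2 fold changes of the 28 tested members (rows) in 9 comparisons between groups (columns), from edgeR; dots mark adjusted p under 0.05 and grey cells mark GH3.17 against a group without reads. The quadruple mutant margin columns hold most of the lower values, with 17 members called lower than in the center and 17 lower than in the Col-0 margin.

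In the margin, loss of the 4 TCP genes went with lower levels of 16 of 23 Aux/IAA genes and higher levels of 3. Over both families 23 of 28 members were called, 17 lower and 6 higher, where 43.9% of all tested loci were called (21.8% lower and 22.1% higher). The Aux/IAA median was -0.51. IAA1 was at 14.8, 12.2 and 16.5 CPM in margins of Col-0, and the quadruple mutant fell to 14.3% of that mean (-2.81 ± 0.20, adjusted p = 7.93e-10). IAA2 was at 35.4, 51.2 and 36.2 CPM in margins of Col-0 and fell to 16.7% (-2.58 ± 0.19, adjusted p = 1.55e-09). IAA19 was at 5.68, 5.86 and 4.45 CPM and fell to 19.8% (-2.32 ± 0.22, adjusted p = 3.84e-08). For all 3 genes no mutant library reached the lowest Col-0 library.

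IAA29 (AT4G32280), an auxin repressor gene raised by PIF factors in shade, was at 5.33, 4.27 and 6.46 CPM in margins of Col-0 and at 0.641, 0.169 and 0.421 in those of the quadruple mutant, where it rested on 13 reads (-3.67 ± 0.43, adjusted p = 5.84e-07). IAA6 was at 1.38, 2.69 and 1.87 CPM in the Col-0 margin (-3.59 ± 0.55, adjusted p = 1.79e-05) and IAA5 at 1.03, 0.855 and 1.87 (-2.89 ± 0.65, adjusted p = 0.00108). Without quadruple mutant margin replicate 1 these values were -4.24 and -3.55, and that of IAA6 was -2.99 without replicate 2. None of these 3 genes overlapped between genotypes. IAA17 was at 24.6, 23 and 20.4 CPM in the Col-0 margin (-1.75 ± 0.21, adjusted p = 6.6e-07). IAA11 was at 15.5, 9.65 and 12.8 CPM there and at 5.04, 3.8 and 3.79 in the quadruple mutant (-1.56 ± 0.17, adjusted p = 1.82e-07). Both fell to about the same share of Col-0, 29.3% for IAA17 and 33.3% for IAA11.

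Smaller falls than these were called for 8 further Aux/IAA genes. IAA14 fell by 0.84 ± 0.16 (adjusted p = 0.000222), IAA18 by 0.60 ± 0.083 (adjusted p = 4.84e-06), IAA7 by 0.47 ± 0.07 (adjusted p = 1.36e-05), IAA4 by 0.43 ± 0.09 (adjusted p = 0.000525) and IAA16 by 0.40 ± 0.081 (adjusted p = 0.000437). IAA8 was at 214, 198 and 210 CPM in margins of Col-0 and 178, 170 and 176 in those of the quadruple mutant (-0.25 ± 0.048, adjusted p = 0.000237). IAA3 was lower by a call (-0.51 ± 0.16, adjusted p = 0.0116) that was lost without Col-0 margin replicate 2 (adjusted p = 0.106) or quadruple mutant margin replicate 1 (adjusted p = 0.0552), and its libraries overlapped, 26.3 to 39.2 CPM against 20.5 to 27.9. IAA27 (-0.31 ± 0.11, adjusted p = 0.0327) lost its call without Col-0 margin replicate 1 or 2 or quadruple mutant margin replicate 1 (adjusted p = 0.0871 to 0.169) and with DESeq2.

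The 3 Aux/IAA genes that were higher in the quadruple mutant margin included IAA30, the tested member without a degron core match. It was at 0.172, 0.244 and 0.287 CPM in Col-0 and 1.56, 1.01 and 1.47 in the quadruple mutant (2.42 ± 0.55, adjusted p = 0.00112). IAA26 was at 21.7, 19.2 and 19.5 CPM against 29.5, 23.9 and 26.2, without overlap (0.40 ± 0.098, adjusted p = 0.00217). IAA9 was higher by 0.15 ± 0.056 (adjusted p = 0.0369), a call lost with relative log expression scaling, with DESeq2 and without any 1 of the 6 margin libraries compared (adjusted p = 0.063 to 0.154).

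In the center the Aux/IAA genes of the same mutant were called in both directions. Over both families 18 of 28 members were called, 10 higher and 8 lower, where 31.1% of all tested loci were called (15.2% higher and 15.8% lower). Of the Aux/IAA genes 7 were higher and 8 lower, with a median of -0.05. Of the tissue markers described at the end, 5 of 6 xylem genes were higher in this comparison, 4 of 6 phloem and procambium genes lower and 1 higher, and 7 of 8 photosynthetic genes lower, and their part was not tested. The 8 lower ones were IAA1, IAA2, IAA6, IAA8, IAA11, IAA17, IAA18 and IAA29, each also lower in the margin. IAA1 was at 10.3, 10.8 and 12.7 CPM in the Col-0 center (-1.25 ± 0.18, adjusted p = 2.89e-05), IAA6 at 2.3, 3.22 and 3.36 (-1.77 ± 0.37, adjusted p = 0.00101) and IAA29 at 2.06, 3.72 and 3.24 against 0.846, 1.06 and 0.931 (-1.64 ± 0.40, adjusted p = 0.00383). All mutant libraries of these 3 genes lay below the Col-0 libraries. IAA2 fell by 1.02 ± 0.18 (adjusted p = 0.000204), IAA17 by 0.71 ± 0.17 (adjusted p = 0.00353), IAA11 by 0.68 ± 0.17 (adjusted p = 0.00511), IAA18 by 0.61 ± 0.085 (adjusted p = 1.98e-05) and IAA8 by 0.34 ± 0.048 (adjusted p = 2.04e-05).

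A second set was higher in the quadruple mutant center although lower in its margin: IAA7 and IAA16, and, with margin calls that were lost without single libraries, IAA3 and IAA27. IAA16 was at 65.7, 71.2 and 70.3 CPM in the Col-0 center and rose by 0.69 ± 0.078 (adjusted p = 1.79e-06). IAA7 was at 83.6, 91.5 and 84.2 CPM there and rose by 0.50 ± 0.066 (adjusted p = 1.06e-05). IAA3 was at 30.6, 35.7 and 30.4 CPM and rose by 0.64 ± 0.15 (adjusted p = 0.0022), and IAA27 at 23.2, 20.7 and 21.7 and rose by 0.42 ± 0.092 (adjusted p = 0.00148). For each of the 4 genes every mutant center library was above every Col-0 center library, which adds no separate support to their calls. IAA9 was also higher (0.31 ± 0.055, adjusted p = 0.00026). IAA13 (0.24 ± 0.075, adjusted p = 0.0171) and IAA30 (1.38 ± 0.45, adjusted p = 0.0257) were higher by calls that DESeq2 did not make. IAA13 also lost its call without Col-0 center replicate 1 or quadruple mutant center replicate 1 or 2 (adjusted p = 0.0554 to 0.0916), and IAA30 without Col-0 center replicate 1 or 2 or quadruple mutant center replicate 2 (adjusted p = 0.0674 to 0.146). IAA19 was not called in the center, at 7.88, 9.91 and 8.29 CPM in Col-0 and 9.31 to 12.6 in the quadruple mutant.

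The double mutant was set beside the quadruple mutant against the same Col-0 libraries. In its margin 8 of 28 members were called, all lower, where 14.1% of all tested loci were called (6.33% higher and 7.81% lower). In its center 3 were called, 1 higher and 2 lower, where 6.15% of loci were called (3.58% higher and 2.57% lower). IAA1 was at 8.22, 7.47 and 8.54 CPM in the double mutant margin (-0.84 ± 0.17, adjusted p = 0.00171) and IAA2 at 26.4, 21.8 and 23.7 (-0.78 ± 0.17, adjusted p = 0.00328). These levels were 55.7% and 58.6% of Col-0, between Col-0 and the quadruple mutant, with no overlap of the 3 genotypes. The margin was further lower for IAA1 (-1.96 ± 0.21, adjusted p = 1.29e-06) and IAA2 (-1.80 ± 0.20, adjusted p = 1.8e-06) in the quadruple than in the double mutant. IAA8 was lower in the double mutant margin (-0.24 ± 0.048, adjusted p = 0.0021) and center (-0.28 ± 0.048, adjusted p = 0.00123), and IAA7 was higher in its center (0.34 ± 0.067, adjusted p = 0.00421). The other 5 margin calls (IAA11, IAA17, IAA18, GH3.3 and GH3.5) and the center call of IAA18 were each lost when some 1 library was left out. IAA18 in the margin lost its call without double mutant margin replicate 1 (adjusted p = 0.0659). GH3.3 lost it without Col-0 margin replicate 1 or 2 or double mutant margin replicate 2 or 3 (adjusted p = 0.07 to 0.176), IAA17 without replicate 1 or 2 of either margin (0.0822 to 0.156), IAA11 without replicate 1 or 3 of either margin (0.0649 to 0.148), and GH3.5 without Col-0 margin replicate 1 or 2 or any 1 double mutant margin replicate (0.0629 to 0.193). IAA18 in the center lost it without replicate 1 or 2 of either genotype (adjusted p = 0.0761 to 0.134). With double mutant margin replicate 3 and Col-0 margin replicate 1, the libraries rich in multiply aligned reads, both left out, 5 of the 8 margin calls were made.

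The quadruple and double mutants differed at 19 members in the margin, 5 higher and 14 lower in the quadruple mutant, where 25.8% of all tested loci were called (12.2% higher and 13.6% lower). In the center they differed at 8, 4 in each direction, where 7.93% of loci were called (3.56% higher and 4.37% lower). IAA19 was at 3.66, 4.46 and 3.48 CPM in the double mutant margin and was lower in the quadruple (-1.88 ± 0.23, adjusted p = 3.9e-06). IAA29 was at 4.82, 2.91 and 1.39 CPM and was also lower in the quadruple (-2.98 ± 0.45, adjusted p = 4.75e-05). In the center IAA16 was at 74.6, 81.7 and 84 CPM in the double mutant and was higher in the quadruple (0.47 ± 0.078, adjusted p = 0.000673), the one center call of 8 that held in every alternative run.

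Margin and center also differed in Col-0 and in the double mutant, for fewer members. In Col-0 9 members were called, 2 higher in the margin and 7 lower, where 11.4% of all tested loci were called (5.3% higher and 6.13% lower). In the double mutant 9 were called, all lower, where 7.51% of loci were called (2.47% higher and 5.04% lower). IAA27 was lower in the margin in all 3 genotypes, by -0.74 ± 0.11 in Col-0 (adjusted p = 7.47e-05) and -0.95 ± 0.11 in the double mutant (adjusted p = 4.21e-06). IAA19 was lower by -0.70 ± 0.16 (adjusted p = 0.00591) and -1.43 ± 0.16 (adjusted p = 4.63e-06), and IAA7 by -0.33 ± 0.069 (adjusted p = 0.00282) and -0.53 ± 0.068 (adjusted p = 2.16e-05). IAA11 was higher in the Col-0 margin (0.66 ± 0.16, adjusted p = 0.00856), a call that was lost without Col-0 margin replicate 1 (adjusted p = 0.0551). In Col-0 the calls of IAA8, lower in the margin (adjusted p = 0.0562 to 0.152 without center replicate 1 or 2 or margin replicate 2 or 3), IAA9, lower (0.0644 without center replicate 2), and GH3.3, higher (0.0521 to 0.108 without center replicate 2 or 3 or margin replicate 1 or 2), also depended on single libraries. In the double mutant those of IAA3 (0.11 to 0.171) and IAA16 (0.0646 to 0.134) were lost without center replicate 2 or 3 or margin replicate 1 or 2, and that of IAA13 without center replicate 2 (0.0535). Equally numbered margin and center libraries of a genotype deviated together, and with that pairing as a block the counts became 13 in Col-0, 12 in the double mutant and 23 in the quadruple mutant, where the same block called 21.6%, 17.1% and 36.3% of all tested loci. In Col-0 these were 5 higher and 8 lower. The block added IAA2 (0.40 ± 0.077, adjusted p = 8.37e-05), IAA18 (0.24 ± 0.066, adjusted p = 0.00582) and IAA29 (0.81 ± 0.24, adjusted p = 0.0105), higher in the Col-0 margin, and IAA17 (-0.33 ± 0.096, adjusted p = 0.00867), lower.

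**Figure D3:**
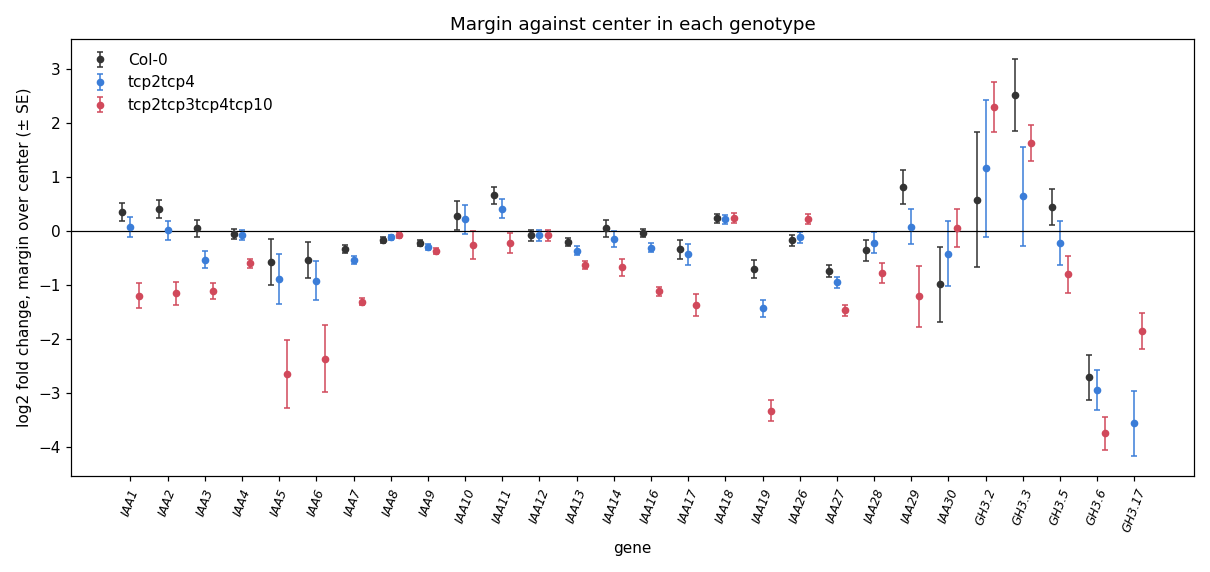
Log2 margin-to-center difference (± SE, edgeR) of tested members in Col-0, tcp2-tcp4 (2KO) and tcp2-tcp3-tcp4-tcp10 (4KO); negative values are lower in the margin, and GH3.17 in Col-0 is omitted because its margin had no reads. IAA19 moves from -0.70 to -1.43 to -3.33 and IAA7 from -0.33 to -0.53 to -1.31 across the 3 genotypes.

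The margin-to-center difference itself was compared between genotypes. Between the quadruple mutant and Col-0 it differed for 14 of 28 members, 13 of them Aux/IAA genes with a more negative difference in the mutant, where 17.2% of all tested loci were called (9.19% more negative and 7.96% more positive). IAA19 had the largest Aux/IAA shift (-2.63 ± 0.26, adjusted p = 1.18e-06). IAA1 (-1.56 ± 0.28, adjusted p = 0.000643) and IAA2 (-1.56 ± 0.27, adjusted p = 0.000398) followed. IAA3 shifted by -1.16 ± 0.22 (adjusted p = 0.000832), IAA16 by -1.08 ± 0.11 (adjusted p = 1.76e-06), IAA7 by -0.97 ± 0.097 (adjusted p = 1.18e-06) and IAA27 by -0.73 ± 0.15 (adjusted p = 0.00155). Between the quadruple and double mutants 6 members differed, all more negative in the quadruple, where 2.9% of all tested loci were called (1.47% more negative and 1.43% more positive), with IAA19 at -1.90 ± 0.27 (adjusted p = 0.000743) and IAA7 at -0.77 ± 0.096 (adjusted p = 0.00022). With the pairing as a block these counts were 19 and 11, where 28.1% and 11.3% of all tested loci were called. Between the double mutant and Col-0 none was called by edgeR, where 0.439% of all loci were (0.107% more negative and 0.332% more positive). At an unadjusted p under 0.05 there were 3, DESeq2 also called none with 3 unadjusted, and with the pairing as a block edgeR called 4: IAA2, IAA3, IAA16 and IAA19, all more negative in the double mutant, where the block called 7.58% of all loci.

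The GH3 genes split by piece. GH3.2 and GH3.3, which encode auxin-inducible conjugating enzymes, were higher in the quadruple mutant margin. GH3.3 (AT2G23170) was at 1.55, 1.71 and 0.431 CPM in the Col-0 margin, at 0.536, 0.104 and 0.174 in the double mutant margin and at 5.04, 3.55 and 4.52 in the quadruple mutant margin. The quadruple mutant libraries were above all others, against Col-0 by 1.80 ± 0.36 (adjusted p = 0.000381), and in the center by 2.69 ± 0.62 (adjusted p = 0.00248; 3.36 without Col-0 center replicate 1). Between the pieces of this mutant the margin was the higher one (1.64 ± 0.33, adjusted p = 0.00088). GH3.2 (AT4G37390) was at 0, 0.489 and 0 CPM in the Col-0 margin, 4 reads in all, and at 2.29, 3.21 and 3.37 in the quadruple mutant margin (3.86 ± 0.65, adjusted p = 5.4e-05). All 4 reads came from Col-0 margin replicate 2. Without that library Col-0 had none and the quadruple mutant, with 95 reads, was at least 12.5-fold higher with a floor of 3 reads over the group. Its margin also exceeded its center in that mutant (2.30 ± 0.47, adjusted p = 0.001). In the center it had 17 reads against 3 in Col-0, a ratio of 4.77 with a 95% interval of 1.38 to 25.4 that covers counting error only.

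GH3.6 and GH3.17 were center genes in every genotype. GH3.6 (AT5G54510), known from the dwarf dfl1 line, was at 1.03, 0.366 and 0.718 CPM in margins of Col-0 and 4.49, 5.82 and 3.12 in its center (-2.71 ± 0.42, adjusted p = 0.00018). In the double mutant the difference was -2.95 ± 0.36 (adjusted p = 1.53e-05), and -3.67 without its margin replicate 3. In the quadruple mutant it was at 0.916, 0.929 and 0.631 CPM in margins and 11.3, 13 and 9.57 in centers (-3.75 ± 0.30, adjusted p = 1.69e-08). The center was higher than in Col-0 (1.35 ± 0.24, adjusted p = 0.000234), while the margin libraries of these genotypes overlapped. GH3.17 (AT1G28130), which conjugates auxin to glutamate, had no reads in margins of Col-0 and 42 in its centers, at least 11.9-fold higher with a floor of 3 reads over the group. The double mutant had 4 margin reads and 42 center reads. In the quadruple mutant it was at 0.916, 0.845 and 1.37 CPM in margins (33 reads) and 3.28, 4.56 and 3.19 in centers (111 reads; -1.85 ± 0.34, adjusted p = 0.000482). The quadruple mutant margin was at least 7.15-fold above Col-0 by the same floor. Its center call against Col-0 (1.13 ± 0.33, adjusted p = 0.0134) was not made by DESeq2, nor without Col-0 center replicate 1 (adjusted p = 0.0864) or quadruple mutant center replicate 2 (adjusted p = 0.0866). GH3.5 was lower in the quadruple mutant margin (-1.18 ± 0.35, adjusted p = 0.00951), a call that was lost without Col-0 margin replicate 2 (adjusted p = 0.083).

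Other genes of auxin signalling were counted against the same all-loci shares, 22.1% called higher and 21.8% lower in the quadruple mutant margin and 15.2% and 15.8% in its center. In the quadruple mutant margin 4 of 5 activating ARF genes were higher than in Col-0 and none lower, and in the center all 5 were higher. ARF6 was higher in both pieces (1.35 ± 0.072 in the margin, adjusted p = 1.44e-11, and 1.18 ± 0.067 in the center). ARF5, which encodes the MONOPTEROS activator of vein formation, was higher in the margin (1.14 ± 0.12), and ARF7 in the center (0.69 ± 0.10). 4 of 5 TOPLESS family corepressor genes were higher in the margin and 5 of 5 in the center, with none lower. Of 6 receptor genes 4 rose and 1 fell in the margin, with AFB2 at 0.40 ± 0.062 and AFB3 at -0.28 ± 0.067, and 4 were higher in the center, with AFB1 at 0.69 ± 0.087. The 10 other ARF genes gave 1 higher and 2 lower calls in the margin, a smaller share than that of all loci, and 4 and 1 in the center.

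Auxin synthesis and transport genes were mixed: 5 of 13 tested rose and 5 fell in the quadruple mutant margin, and 5 rose and 2 fell in the center. In the margin the efflux carrier gene PIN7 (-1.22 ± 0.094) and the synthesis gene TAA1 (-1.26 ± 0.14) were lower. Within the quadruple mutant TAA1 (1.92 ± 0.19) and YUC2 (1.92 ± 0.26) were higher in the margin, and the importer gene LAX3 (-1.61 ± 0.14) and PIN7 (-1.33 ± 0.092) lower. In that comparison, where 25.6% of all loci were called, 1 of 5 ARF activators was higher and 4 were lower, and of the 13 synthesis and transport genes 5 were higher and 5 lower. The calls of receptors (2 of 6), corepressors (1 of 5) and other ARFs (3 of 10) were near the all-loci share. AFB1 (-1.17 ± 0.088) and ARF6 (-0.67 ± 0.064) were among the lower ones. A further list of auxin metabolism held GH3.4, GH3.9, AT1G14130, AT1G14120, ILR1 and IAR3, of which 4 were tested. Of these, GH3.9 was lower in that mutant's margin, both against the center (-0.81 ± 0.16) and against Col-0 (-0.87 ± 0.17). None was called in the center against Col-0.

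**Figure D4:**
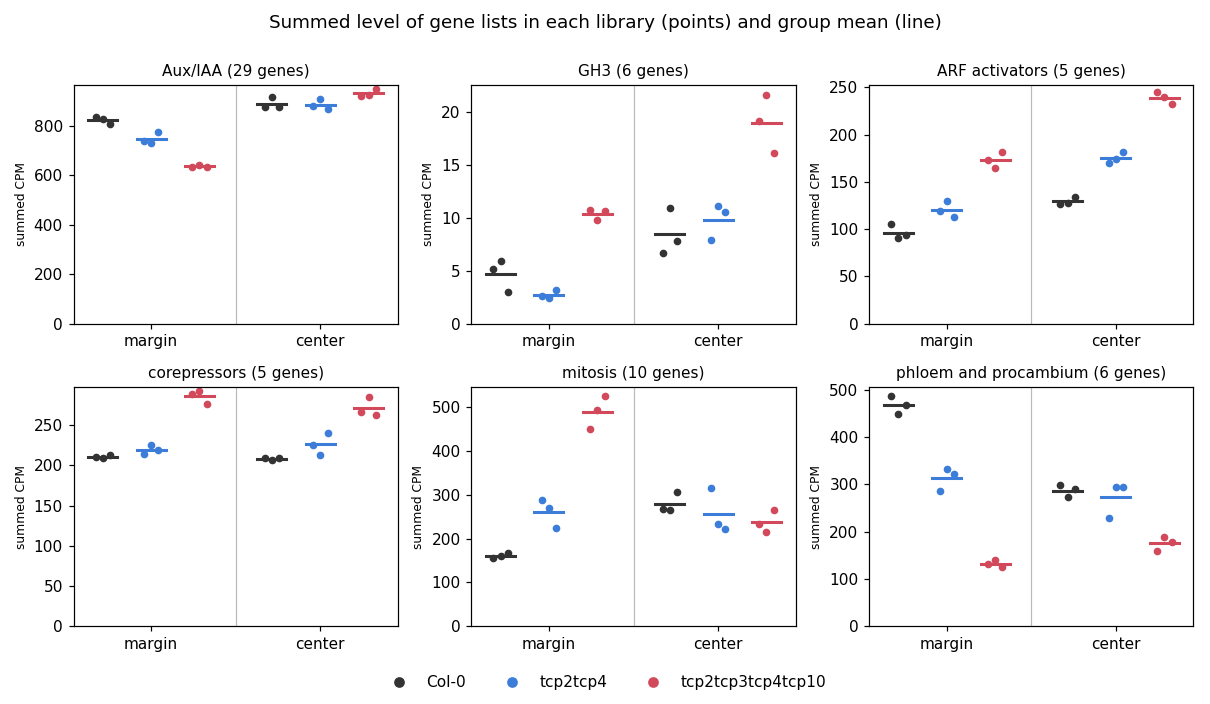
Summed levels (CPM) of the Aux/IAA genes, the GH3 genes, the activating ARFs, the corepressors, and the mitosis and the phloem and procambium marker lists in the 6 groups. Points are libraries and lines the mean of 3. The Aux/IAA sum was lowest in the quadruple mutant margin (636 CPM), the group with the highest mitosis sum (490 CPM). Col-0 margins had the lowest mitosis sum, 161 CPM against 280 for its centers, with Aux/IAA sums of 823 against 888. Double mutant margins and centers had mitosis sums of 261 and 257 CPM, with Aux/IAA sums of 747 and 885. A relation between these sums was not tested.

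Markers of tissue makeup also differed between the groups, and their part in the differences above was not tested. All 10 mitosis genes were higher in the quadruple mutant margin than in the Col-0 margin, and their sum ranged from 451 to 526 CPM against 156 to 168. Of 6 phloem and procambium genes 5 were lower, with sums of 125 to 139 CPM against 448 to 486, and all 8 photosynthetic genes were lower and all 4 epidermis genes higher. Between the pieces of the quadruple mutant all 10 mitosis genes rose toward the margin and all 6 xylem genes fell, with xylem sums of 79.8 to 82.1 CPM against 159 to 185. All 4 epidermis genes were higher in that margin, and 5 of 8 photosynthetic and 3 of 6 phloem and procambium genes lower. In the double mutant margin against Col-0, all 10 mitosis and 2 of 4 epidermis genes were higher. There 7 of 8 photosynthetic and 4 of 6 phloem and procambium genes were lower. Between the pieces of Col-0, IAA7, IAA19 and IAA27 were lower in the margin, as was IAA9 by a call lost without center replicate 2. All 10 mitosis genes were lower in the Col-0 margin (median -0.82), and so was 1 of 6 xylem genes. Of 6 phloem and procambium genes 4 were higher there. Between the pieces of the double mutant no mitosis gene was called. In its margin 4 of 6 xylem genes were lower and 1 of 6 phloem and procambium genes was higher. The meristem genes STM, WUS and CLV3 were at or near 0 in every group. Counts of IAA3, IAA5, IAA9, IAA10, IAA11, IAA13, IAA27, IAA32 and IAA34 are uncertain because each overlaps another gene in the annotation, by up to 1176 bases for IAA13, and the strand setting of the counting is not given in the sources used here.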

How the data were processed

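Total RNA of 18 pools of leaf pieces was sequenced from TruSeq libraries, per the labels' protocols. The authors deposited raw counts per locus. The build TAIR10, HTSeq 0.7.2, TopHat2 2.0.13 and edgeR 3.8.6 are named in the submitters' processing notes. The deposited count table also held summary rows, which were left out of library sizes: 0.497% to 1.15% of reads lay outside features and 1.38% to 1.57% were ambiguous. Of 33602 loci, 9788 had no reads and 17763 passed filterByExpr by group.

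Counts were tested with edgeR 4.0.16 in R 4.3.3 (TMM scaling, quasi-likelihood F test, 1 mean per group over all 18 libraries, Benjamini-Hochberg over all tested loci, 12 comparisons, calls at adjusted p under 0.05). The SE is the log2 fold change divided by the square root of F. Members were read from these genome-wide fits. CPM used the TMM scaled library sizes. The script was tested on simulated data. Alternatives were relative log expression scaling, no low count filter, DESeq2 1.42.0, only the groups compared, a replicate block, leaving out each library and, added after seeing the data, leaving out both libraries rich in multiply aligned reads.

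Libraries of a genotype with the same number deviated together between margin and center (correlations 0.196 to 0.384 over 9 pairs, -0.238 to 0.0383 over 18 pairs with other numbers, over the 5000 most variable loci), so the number was taken to pair margin and center. Across genotypes the numbers did not pair throughout. In the same piece, correlations were -0.233 to 0.173 over 18 pairs with equal numbers and -0.190 to 0.230 over 36 pairs with other numbers. Equal numbers of Col-0 and the quadruple mutant were at 0.0167 to 0.173, and those of Col-0 and the double mutant at -0.233 to -0.0290. Every member is accounted for, those called in a quadruple mutant comparison with values; from each pathway list at most 2 genes per direction with the lowest adjusted p are named. Separation of libraries between groups is stated for genes described because of their calls, so it adds no separate support. The share of all loci with such separation was not counted. The members and lists were chosen with earlier results of these data known. Gene models and sequences came from TAIR10.1, joined to the counts by locus and not compared with TAIR10, and an upstream motif match is a description of letters only.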

Additional observations from a re-analysis of the deposited data

Results flagged for a closer look

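The margin-to-center difference differed between genotypes by the interaction test for 20 member values, and each is listed with its size (log2, edgeR's quasi-likelihood test). Against Col-0, the quadruple mutant difference was more negative for IAA1 (-1.56), IAA2 (-1.56), IAA3 (-1.16), IAA4 (-0.55), IAA7 (-0.97), IAA11 (-0.88), IAA13 (-0.43), IAA14 (-0.72), IAA16 (-1.08), IAA17 (-1.03), IAA19 (-2.63), IAA27 (-0.73) and IAA29 (-2.04). It was more positive for GH3.17 (5.04), a fitted value that depends on the prior count because the Col-0 margin held no reads. Against the double mutant, it was more negative for IAA1 (-1.27), IAA2 (-1.17), IAA4 (-0.53), IAA7 (-0.77), IAA16 (-0.81) and IAA19 (-1.90).

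Of these, IAA11, IAA13, IAA14, IAA29 and GH3.17 against Col-0, and IAA1, IAA2 and IAA4 against the double mutant, lost their call in at least 1 alternative. IAA11 lost it without quadruple mutant center replicate 1 (adjusted p = 0.0533), IAA13 with DESeq2, GH3.17 without Col-0 margin replicate 2 or 3 (0.0556 to 0.0586), and IAA4 without double mutant margin replicate 2 or quadruple mutant margin replicate 1 (0.0505 to 0.0537). Against Col-0, IAA14 lost it without any 1 of 8 of the 12 libraries compared (0.0502 to 0.11) and IAA29 without any 1 of 7 (0.0514 to 0.109). Against the double mutant, IAA1 lost it without quadruple mutant center replicate 1 or margin replicate 1 or 2 (0.0501 to 0.0618), and IAA2 without double mutant center or margin replicate 1, quadruple mutant center replicate 2 or margin replicate 1 or 3 (0.0567 to 0.09). IAA7 and IAA16 were lower than Col-0 in the margin and higher in the center of the quadruple mutant, as were IAA3 and IAA27, whose margin calls were lost without single libraries. The mitosis and vascular marker sums moved between the same groups, and their part in these values was not tested.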

How the results depend on the processing

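Of 137 called member values, 97 kept their call in every alternative run, 40 lost it in at least 1 and 0 reversed. All calls that kept it in the quadruple mutant margin were 17 lower and 2 higher of 20 against its center, and 14 lower and 5 higher of 23 against Col-0. Leaving out 1 library gave 19 to 20 members and 19 to 22 members there, 15 to 19 in the center against Col-0, 7 to 8 for the pieces of Col-0, 6 to 9 for those of the double mutant, 4 to 7 and 2 to 4 for the double mutant margin and center against Col-0, 16 to 18 and 4 to 7 for the quadruple against the double mutant, and 0 in each case, 11 to 14 and 3 to 7 for the interactions of the double mutant and the quadruple mutant with Col-0 and of the quadruple with the double mutant. With both libraries rich in multiply aligned reads left out, 5 members were called in the double mutant margin against Col-0 instead of 8. With the replicate block, which pairs margin and center of a genotype, 4 members were called instead of 0 for the interaction of the double mutant with Col-0 and 11 instead of 6 for that of the quadruple with the double mutant; the causes were not tested.

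Over all loci the block raised the calls between pieces from 2030 to 3836 in Col-0 and from 1334 to 3041 in the double mutant and from 4552 to 6441 in the quadruple mutant, and the interactions from 78 to 1347, from 515 to 2009 and from 3047 to 4996. With only the groups compared, 1334 became 764 (double mutant pieces), 1093 became 674 (double mutant center against Col-0), 1409 became 750 (quadruple against double mutant center) and 78 became 39. Without the low count filter 78 became 175. Leaving out 1 library moved 6 counts over all loci, and the shares printed from them, by over 1.5 times: 1093 became as few as 462 (without Col-0 center replicate 1), 2513 as few as 1519 and 1334 as few as 842 (both without double mutant margin replicate 1), 1409 as few as 841 (without quadruple mutant center replicate 3), 515 as few as 269 (without quadruple mutant center replicate 2), and 78 between 17 and 208 (without double mutant center replicates 2 and 1). Across genotypes equal numbers did not deviate together throughout, and blocking by the number moved no count of members by over 1.5 times. Depth limits the GH3 genes, IAA5, IAA6, IAA29 and IAA30, which rest on few reads per group.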
